A study of Mus musculus with 12 samples.

Results

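The genes described here are a small FOXO and muscle atrophy programme: the forkhead factors Foxo1 and Foxo3, the muscle ubiquitin ligases Fbxo32 and Trim63, and 6 genes known elsewhere as FOXO targets or as parts of the insulin pathway that controls FOXO (Irs2, Insr, Sesn1, Ccng2, Pik3ip1 and Bcl6). They were taken by gene symbol, with every probe the array's annotation gives them, so that 10 genes of the 8905 tested and 19 probes of the 45281 in the table are covered. The rule uses the symbols alone, with no measured value, but the members were chosen with earlier results of these data known. Of the 19 probes, 13 were detected on enough arrays to be tested, and all 10 genes had at least 1 such probe. The samples are primary cardiac myocytes from adult C57BL/6 mice 12 to 16 weeks old, freed from the heart by collagenase perfusion and kept in culture for 48 h. In 6 samples the medium held 200 nmol/L recombinant connective tissue growth factor (CTGF), a secreted matrix-associated protein, and 6 control samples had none. All wells also had laminin coating, bovine serum albumin, penicillin-G and the contraction inhibitor BDM. The labels do not say whether the 6 samples of a group come from separate hearts, so p-values measure the spread between samples, which may be technical. Control 6 stood apart from its group: its median correlation with the other controls was 0.984, beside 0.987 to 0.993 for the other 11 arrays within their groups. Without Control 6 the same counts of members were called, 4 lower and 1 higher.

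FOXO proteins are transcription factors that sit at the end of insulin and IGF signalling. When AKT or its relative SGK is active, FOXO is phosphorylated and held outside the nucleus; when that signal falls, FOXO enters the nucleus and switches on its targets. In muscle the best known of these are Fbxo32 (atrogin-1) and Trim63 (MuRF1), ligases that tag proteins for the proteasome during atrophy. FOXO is regulated largely through phosphorylation and location of the protein, which an RNA array does not measure.

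Promoter windows of 250 bases before an annotated start, from RefSeq on GRCm38.p6, were found for 8 members, with 10 windows in all. Not every window lies before the start of the whole gene. The only Pik3ip1 window, chr11:3330481-3330730, lies inside the gene, which runs from 3319241 to 3342971. The Sesn1 window chr10:41887189-41887438 and the Bcl6 window chr16:23981284-23981533 also lie inside their genes. Both strands were searched for GTAAACA, the FOXO core, which reads TGTTTAC on the other strand, and for CAAAACA, the core of the insulin response element, whose reverse complement reads TGTTTTG. The first was in 3.17% of 32851 mouse promoter windows of the same length and the second in 5.56%. Of the 10 member windows, 1 held the first and 2 held the second. All 3 member windows with a match are shown, with the matched 7 bases in capitals. The Trim63 window, chr4:134314870-134315119 on the plus strand, holds TGTTTAC at 194 to 188 bases before the start. The Ccng2 window, chr5:93267323-93267572 on the plus strand, holds CAAAACA at 16 to 10 bases before it. The Irs2 window, chr8:11008930-11009179 on the minus strand, holds TGTTTTG at 37 to 31 bases before it. The windows of Foxo1, Foxo3, Sesn1, Pik3ip1 and Bcl6 do not hold these letters. A match is a description of the letters and not a measured binding site.
Trim63: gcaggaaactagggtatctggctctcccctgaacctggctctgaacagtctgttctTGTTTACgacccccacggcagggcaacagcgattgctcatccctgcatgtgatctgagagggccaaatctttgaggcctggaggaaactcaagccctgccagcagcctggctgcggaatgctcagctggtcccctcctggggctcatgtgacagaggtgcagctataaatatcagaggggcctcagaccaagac
Ccng2: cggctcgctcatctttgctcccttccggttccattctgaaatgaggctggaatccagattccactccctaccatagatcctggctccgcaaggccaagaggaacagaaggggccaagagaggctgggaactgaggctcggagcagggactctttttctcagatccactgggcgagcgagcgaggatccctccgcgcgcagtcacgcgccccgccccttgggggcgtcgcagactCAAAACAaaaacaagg
Irs2: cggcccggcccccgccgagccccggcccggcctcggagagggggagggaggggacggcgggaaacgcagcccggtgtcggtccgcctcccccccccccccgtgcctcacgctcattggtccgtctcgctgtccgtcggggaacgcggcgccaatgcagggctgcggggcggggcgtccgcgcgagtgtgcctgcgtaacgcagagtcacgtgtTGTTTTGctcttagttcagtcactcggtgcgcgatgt

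With CTGF, 4 of the 10 genes were lower (Irs2, Ccng2, Foxo1 and Foxo3), 1 was higher (Bcl6), and 5 did not pass the test, among them both ligases. Where the arrays were not normalized, the 4 lower calls were lost and Foxo3 reached 0.0029. Values are log2 intensities after background correction and quantile normalization, and a gene is called where limma's Benjamini-Hochberg adjusted p over all 8905 genes is under 0.05. The background is high: 25.0% of all genes tested were called higher and 21.6% lower. At the level of probes, 23.8% of 15038 were called higher and 19.7% lower, and of the 13 member probes 1 was higher and 4 were lower. The members' changes were small, from -0.66 to 0.36, with a median of -0.02 beside 0.03 for all genes tested. No member changed by 1 or more on the log2 scale, a size that 5.37% of all genes reached.

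**Figure D1:**
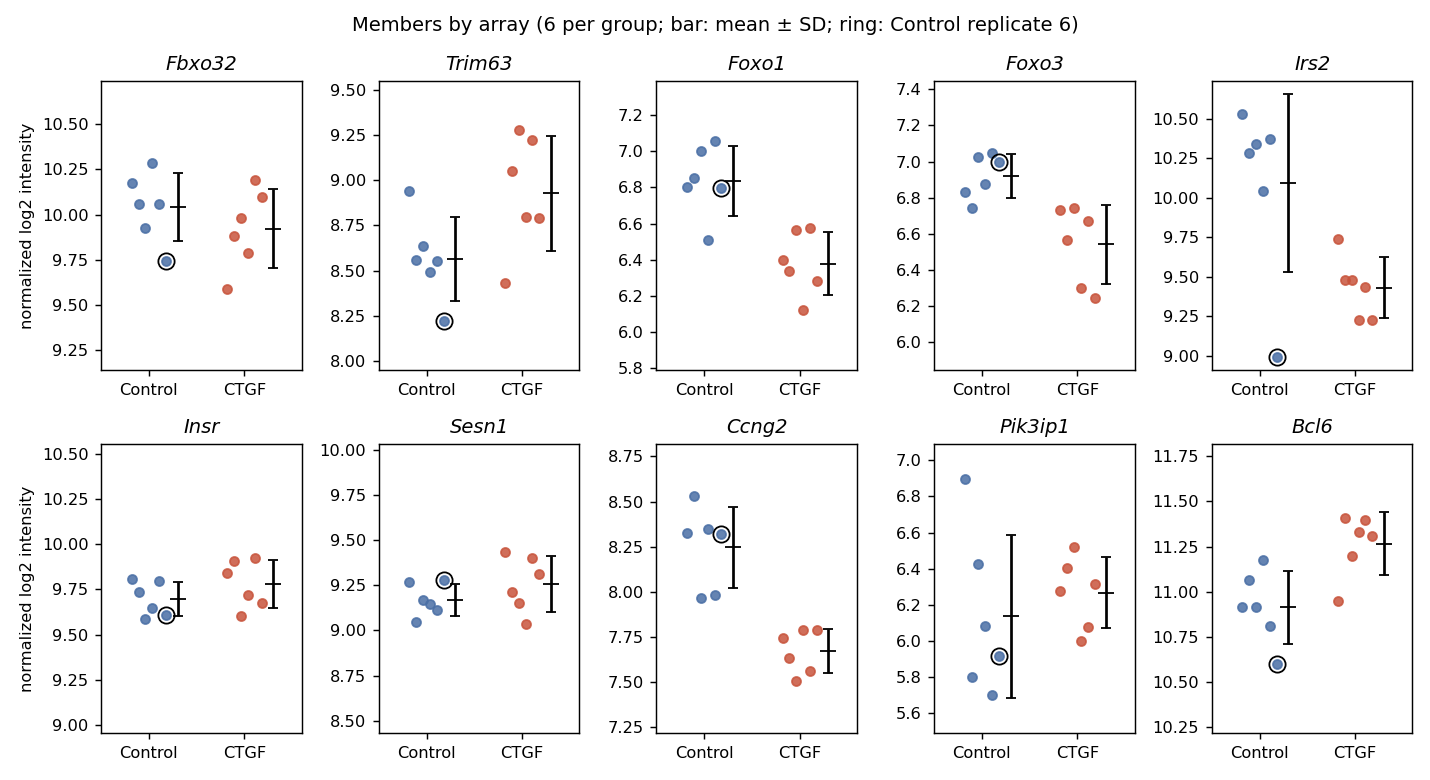
Log2 intensity (vertical axes) of each member gene on its brightest detected probe, with 1 point per array for the 6 CTGF and 6 Control samples and a bar at the group mean. For Ccng2 and Foxo3 all 6 CTGF points lie under all 6 Control points, and for Irs2 Control 6, at 8.99, lies under every CTGF point.

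Both FOXO factors had less RNA with CTGF. Foxo1, a factor that also drives gluconeogenic genes in liver, lay between 6.51 and 7.06 in the controls, with a median of 6.83, and between 6.12 and 6.57 with CTGF, with a median of 6.37. The groups overlapped by 1 control, Control 4, which was below the 2 highest CTGF arrays. Foxo1 fell by 0.46 ± 0.11 (SE, n = 6 per group) on the log2 scale, or 1.37-fold, with a limma adjusted p of 0.00244. A second Foxo1 probe, left out of the test as too rarely detected, was detected on 5 of 6 control arrays and on 0 of 6 CTGF arrays. Its normalized means were 5.23 in the controls and 4.50 with CTGF. Set against the lowest detected signal of each CTGF array, its mean was at least 1.31-fold lower. That bound concerns the means only and leaves out the spread between arrays. Control 6, where the probe was not detected, lay at 4.52, below CTGF 2 at 4.60 and CTGF 4 at 4.70. By their means both Foxo1 probes lay in the same direction.

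Foxo3, the FOXO factor most tied to autophagy and atrophy in muscle, lay between 6.74 and 7.05 in the controls, with a median of 6.94. With CTGF it lay between 6.24 and 6.74, with a median of 6.62. Every CTGF array was below every control array, although the closest pair differed only past the second decimal. Foxo3 fell by 0.38 ± 0.10 (SE, n = 6 per group) on the log2 scale, or 1.30-fold, with a limma adjusted p of 0.00716. Its other 2 probes were mostly undetected (on 4 arrays and on 0 arrays of 12) and give no check of this change. Groups that did not overlap in this direction were found for 12.1% of all genes, and for 13.0% in the opposite direction. Among the members 2 genes were of the first kind, Foxo3 and Ccng2, and 0 of the second.

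The ligases did not pass the test. Fbxo32, the F-box subunit that gives atrogin-1 ligase its substrates, lay between 9.74 and 10.29 in the controls, with a median of 10.06, and between 9.59 and 10.19 with CTGF, with a median of 9.93. The groups overlapped almost fully, and the difference was -0.12 ± 0.11 (SE, n = 6 per group; 95% interval -0.36 to 0.12; limma adjusted p = 0.41). Its other 2 tested probes differed by 0.09 ± 0.38 and 0.06 ± 0.15, with limma adjusted p of 0.862 and 0.772 over probes. On both of these probes Control 6 stood far below the other controls, at 7.58 against 9.66 to 10.06 and at 7.45 against 8.16 to 8.59. The group medians, unlike the means, were lower with CTGF, at 9.60 against 9.80 and at 8.26 against 8.27. On the brightest probe Control 6 was also the lowest control, at 9.74, and without it the difference there was -0.18 (limma adjusted p = 0.196).

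Trim63, the RING-finger ligase that acts on thick filament proteins of the sarcomere, lay higher with CTGF on most arrays. The controls lay between 8.22 and 8.94, with a median of 8.56, and the CTGF arrays between 8.43 and 9.28, with a median of 8.92. Control 1 was the only control above 8.63, and CTGF 1 was the only CTGF array below it. The difference was 0.36 ± 0.14 (SE, n = 6 per group; 95% interval 0.05 to 0.67), and its limma adjusted p of 0.0519 missed the threshold. It passed without CTGF replicate 1 (0.46, limma adjusted p = 0.00978) and without Control replicate 1 (0.44, limma adjusted p = 0.021). With the other 10 arrays left out in turn it did not pass, and its single probe allows no second reading. Fbxo32 and Trim63 are the usual pair of atrophy markers, and neither was called. On its brightest probe Fbxo32 lay on the opposite side of 0 from Trim63. Its other tested probes, at 0.09 and 0.06, lay on the same side as Trim63, so the side depends on the probe. The difference between Fbxo32 and Trim63 was not tested.

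**Figure D2:**
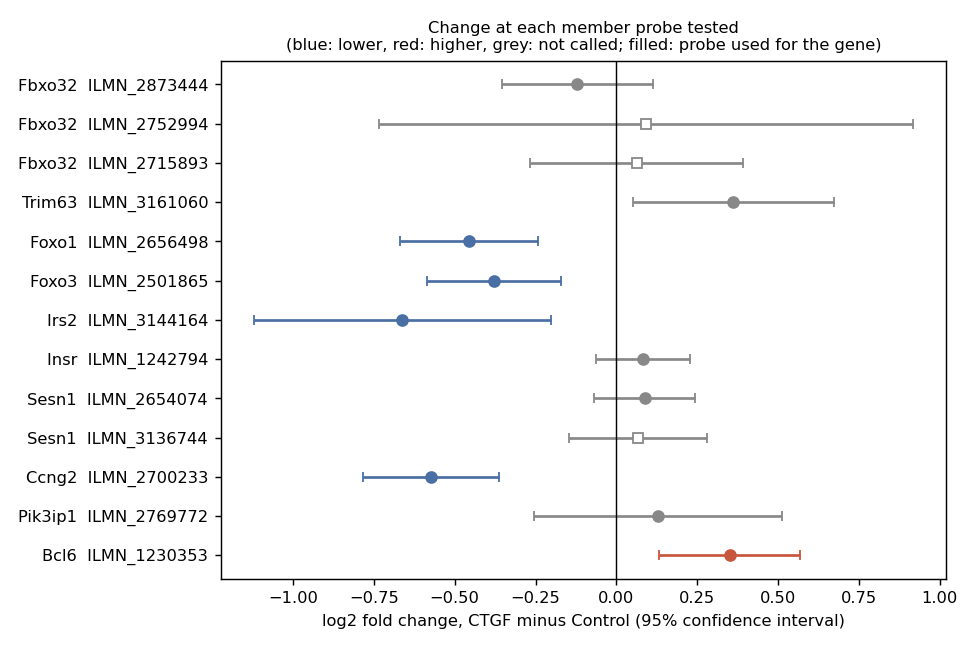
Log2 fold change, CTGF minus Control (horizontal axis), of the 13 tested member probes with 95% confidence intervals from the limma fit over probes. The intervals of Irs2, Ccng2, Foxo1 and Foxo3 lie wholly under 0, those of Bcl6 and Trim63 wholly over 0 (Trim63 was not called after adjustment), and 2 Fbxo32 probes differ from the brightest one in width and side.

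In the insulin branch the adaptor was lower and the receptor was not called. Irs2, the substrate that links the insulin receptor to PI3 kinase, lay between 8.99 and 10.53 in the controls, with a median of 10.31. With CTGF it lay between 9.22 and 9.74, with a median of 9.46. Of the controls, 5 lay at 10.05 or more, above all CTGF arrays, while Control 6 lay below all of them. Irs2 fell by 0.66 ± 0.21 (SE, n = 6 per group) on the log2 scale, or 1.58-fold, with a limma adjusted p of 0.0163. Without Control replicate 6 the change was -0.88, with a limma adjusted p of 1.4e-05. Insr, the receptor itself, lay between 9.59 and 9.81 in the controls and between 9.60 and 9.93 with CTGF, a difference of 0.08 ± 0.08 (95% interval -0.09 to 0.25; limma adjusted p = 0.428; n = 6 per group). Its other 2 probes were detected on 3 arrays and on 0 arrays of 12. Pik3ip1, a membrane protein that restrains PI3 kinase, lay between 5.70 and 6.90 in the controls and between 6.00 and 6.52 with CTGF. The groups overlapped, and the difference was 0.13 ± 0.17 (95% interval -0.24 to 0.50; limma adjusted p = 0.575; n = 6 per group).

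Of the growth arrest and stress targets, Ccng2 was lower, Bcl6 was higher and Sesn1 was not called. Ccng2 encodes cyclin G2, an atypical cyclin linked to cell cycle arrest. It lay between 7.96 and 8.53 in the controls, with a median of 8.33, and between 7.51 and 7.79 with CTGF, with a median of 7.69. The groups did not overlap. Ccng2 fell by 0.57 ± 0.10 (SE, n = 6 per group) on the log2 scale, or 1.49-fold, with a limma adjusted p of 0.000377.

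Bcl6, a zinc finger transcriptional repressor best known from germinal centre B cells, moved the other way. It lay between 10.60 and 11.18 in the controls, with a median of 10.92, and between 10.95 and 11.41 with CTGF, with a median of 11.32. CTGF 1, at 10.95, overlapped the controls, and the other 5 CTGF arrays were above all of them. Bcl6 rose by 0.35 ± 0.11 (SE, n = 6 per group; limma adjusted p = 0.0142), and it was the only member called in the same direction, at an adjusted p under 0.05, in all 26 alternative fits. Sesn1, a stress-induced inhibitor of mTORC1, lay between 9.05 and 9.28 in the controls and between 9.03 and 9.43 with CTGF. Its difference was 0.09 ± 0.08 (95% interval -0.09 to 0.27; limma adjusted p = 0.417; n = 6 per group), and its second tested probe gave 0.07 ± 0.10. The remaining Sesn1 probe was detected on 0 arrays.

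The way arrays were put on one scale moved the calls of most members and the sign of Fbxo32 and Foxo3. Quantile normalization left a median change of 0.03 over all genes, while no normalization gave 0.35 and scaling to the median of all probes gave 0.32. With no normalization 4403 genes were called higher and 699 lower, so 86.3% of the calls were higher, beside 2229 and 1924, or 53.7%, with quantile normalization. On that unnormalized scale none of the 4 genes called lower passed the test. Irs2 was at -0.24 (limma adjusted p = 0.258), Ccng2 at -0.13 (limma adjusted p = 0.461), Foxo1 at -0.08 (limma adjusted p = 0.683) and Foxo3 at 0.0029 (limma adjusted p = 0.988). Called higher on it were 5 members, among them Trim63 at 0.81 and Bcl6 at 0.71. The others were Sesn1 at 0.51 (limma adjusted p = 0.00727), Insr at 0.49 (limma adjusted p = 0.00439) and Pik3ip1 at 0.47 (limma adjusted p = 0.0176). Relative to the median gene these last were at 0.16, 0.14 and 0.12. Relative to the median gene on that scale, the values were -0.59 for Irs2, -0.48 for Ccng2, -0.42 for Foxo1, -0.34 for Foxo3, 0.36 for Bcl6 and 0.46 for Trim63. In a setting added after seeing the data, unnormalized arrays were each centred on the median of the genes tested. The same 4 genes were then called lower, with limma adjusted p from 0.000631 for Ccng2 to 0.0167 for Irs2, and Bcl6 (limma adjusted p = 0.0273) and Trim63 (limma adjusted p = 0.0293) were called higher. The calls of lower RNA for Irs2, Ccng2, Foxo1 and Foxo3 are therefore relative to the bulk of the genes measured on each array.

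**Figure D3:**
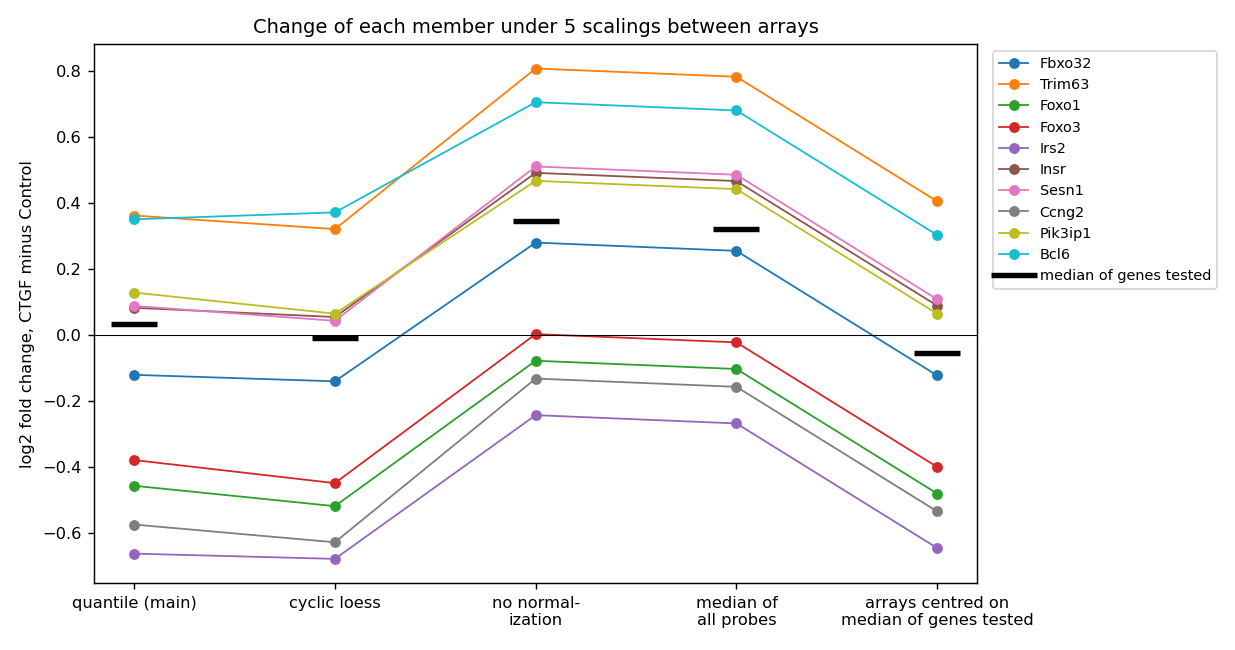
Log2 fold change, CTGF minus Control (vertical axis), of each member gene under 5 ways of scaling the arrays (horizontal axis), with a black bar at the median of all genes tested. The median is 0.35 with no normalization and 0.03 with quantile normalization, and Fbxo32 changes sign and Foxo3 reaches 0.0029 without normalization.

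Further genes of the pathway came from 3 lists. Among FOXO factors and their regulators, 18 genes were listed and 11 tested, of which 3 were higher, 3 lower and 5 not called, with a median of 0.04 beside 0.03 for all genes. With no normalization 7 of them were called higher and 1 lower, with a median of 0.49. Sgk1, a kinase that can phosphorylate FOXO in place of AKT, lay between 10.24 and 10.64 in the controls and between 8.59 and 9.34 with CTGF. Sgk1 fell by 1.41 ± 0.11 (SE, n = 6 per group) on the log2 scale, or 2.65-fold, and was called lower also with no normalization. Sirt1, a deacetylase that acts on FOXO proteins, fell by 0.67 ± 0.10, a call lost with no normalization (-0.23, limma adjusted p = 0.201), and Ep300, an acetyltransferase and coactivator, rose by 0.54 ± 0.14. Sgk3, a relative of Sgk1, fell by 0.53 ± 0.09 on its brightest probe, but the mean of its detected probes gave 0.17 (limma adjusted p = 0.0811), so its direction depends on the probe.

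Among the other FOXO targets, 23 of 31 listed genes were tested, of which 4 were higher, 9 lower and 10 not called, with a median of -0.13. Gadd45b, a stress-response gene, lay between 10.71 and 11.12 in the controls and between 9.68 and 9.94 with CTGF. Gadd45b fell by 1.07 ± 0.09 (SE, n = 6 per group) on the log2 scale. Map1lc3b, an autophagosome protein, fell by 0.80 ± 0.15, Klf2, a flow-responsive factor of endothelium, fell by 0.80 ± 0.10, and Txnip, an inhibitor of thioredoxin, fell by 0.63 ± 0.11. With no normalization the same list had 10 genes called higher and 2 lower, and Gadd45b and Klf2 were those 2.

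Of 20 ubiquitin genes of muscle atrophy beyond the 2 ligases, 15 were tested, and 7 were higher, 3 lower and 5 not called, with a median of 0.12. Usp19, a deubiquitinase linked to muscle wasting, lay between 8.48 and 8.88 in the controls and between 9.20 and 9.79 with CTGF. Usp19 rose by 0.82 ± 0.11 (SE, n = 6 per group) on the log2 scale. Fbxo30, the MUSA1 ligase of denervated muscle, rose by 0.69 ± 0.12. Mdm2, the ligase of p53, rose by 0.67 ± 0.09, and Traf6, an adaptor ligase of cytokine signalling, rose by 0.61 ± 0.09. For these 4 genes the groups did not overlap, but they were picked as the largest called changes of the list. They therefore cannot be compared with the 13.0% of all genes tested that did not overlap in this direction. Elsewhere in the list Trim32 also lay higher without overlap, and Nedd4 and Fbxo21 lay lower without overlap. With no normalization 9 genes of the list were called higher and 0 lower. For the whole lists these counts stand beside the 25.0% and 21.6% of all genes called, and the lists were not tested as sets.

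**Figure D4:**
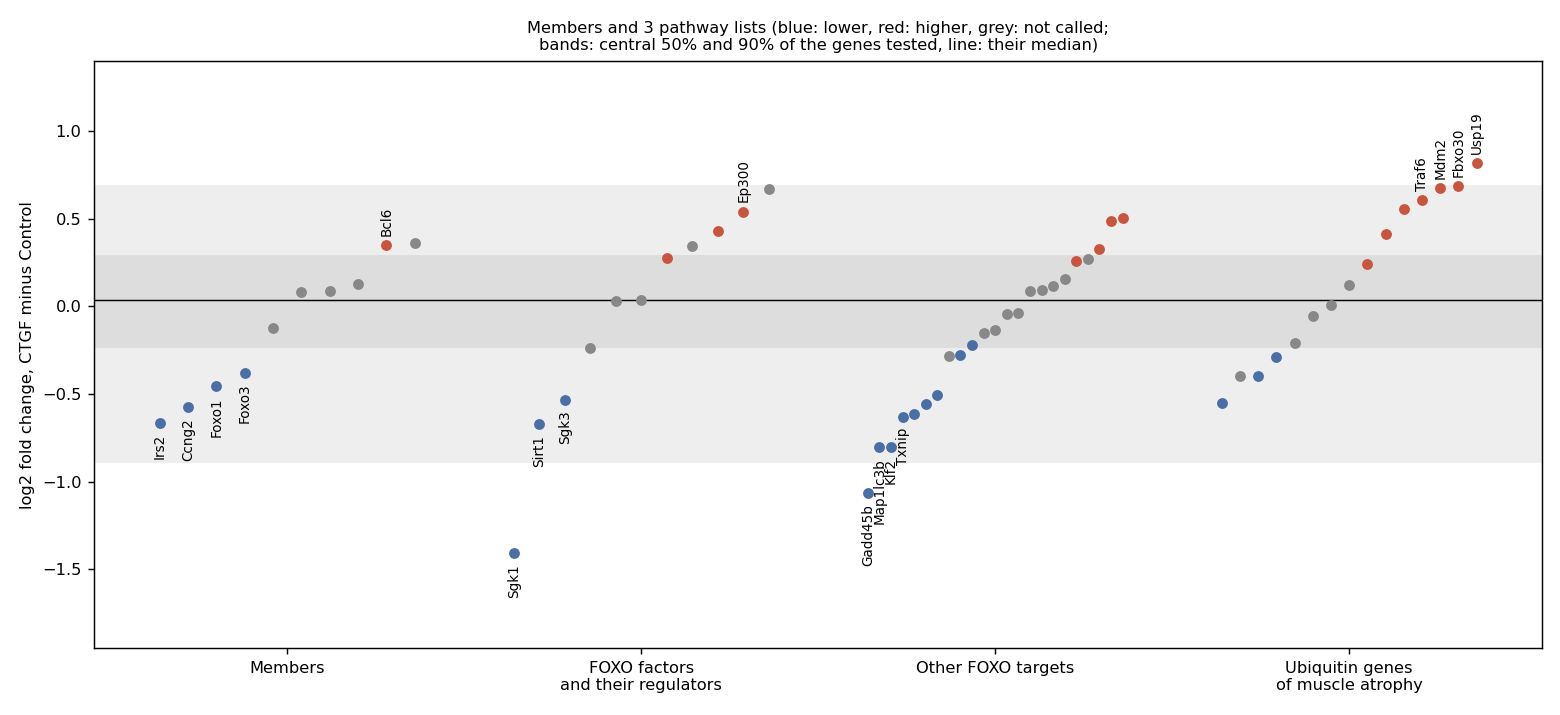
Log2 fold change, CTGF minus Control (vertical axis), of the members and of the 3 pathway lists, 1 point per tested gene, red where called higher, blue where called lower and grey where not called; bands hold the central 50% and 90% of all genes tested and the line is their median. Sgk1 at -1.41 and Gadd45b at -1.07 lie under the outer band, and Usp19 at 0.82 lies over it.

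The cell preparations were checked with marker genes on the same arrays. Of 10 cardiac myocyte markers 9 were tested, of which 0 were higher and 4 lower with CTGF, and their summed normalized intensity, on the linear scale, was 134050 to 156550 with CTGF and 158101 to 173160 in the controls. With no normalization 1 of the 9 was lower, and 8 were lower, with a median of -0.49, where unnormalized arrays were centred on the median of the genes tested. All 12 tested endothelial markers were lower, with a median change of -1.73 (all 12 lower also with no normalization, median -1.32), and their summed normalized intensity was 2104 to 2530 with CTGF and 7300 to 9010 in the controls. Of 6 tested smooth muscle and pericyte markers 5 were lower and 1 higher (3 and 1 with no normalization; median -0.74; summed normalized intensity 2579 to 3161 against 4009 to 4738). Of 6 tested fibroblast markers 3 were lower and 0 higher (3 and 2 with no normalization; median -0.67; summed normalized intensity 5114 to 6030 against 4092 to 7353), and of 4 macrophage markers 1 was lower. No lymphocyte or erythroid marker could be tested. The 4 members called lower, and the named list genes that fell, moved in the direction of the endothelial markers. That follows from their being picked as lower. Bcl6 and the named list genes that rose moved the other way. With quantile normalization all called myocyte, fibroblast and macrophage markers also moved in the direction of the endothelial markers. Of the smooth muscle and pericyte markers 5 shared it and 1 did not. The part of endothelial or any other cell type's RNA in these changes was not tested. In such bulk RNA, fewer cells of a type and less RNA per cell cannot be told apart.

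Members were also compared array by array, as deviations from the group mean over 12 arrays and 45 pairs of genes. By Pearson's r, 0 of the 45 pairs passed after Benjamini-Hochberg adjustment in a permutation test within groups (two-sided), and 1 pair passed by Spearman's rho. That pair was Foxo3 and Ccng2, with r = -0.68 (permutation p = 0.00643, adjusted 0.177) and rho = -0.80 (permutation p = 0.0007, adjusted 0.0315). Leaving out the 2 arrays farthest from the Foxo3 median gave r = -0.70, and r was -0.73 over the 6 CTGF arrays and -0.87 over the 6 controls. By ranks, arrays with more Foxo3 signal within a group thus tended to have less Ccng2 signal, although both genes were lower with CTGF. Foxo1 and Ccng2 gave r = -0.69 (permutation p = 0.0172, adjusted 0.258) and rho = -0.73 (permutation p = 0.0142, adjusted 0.213). The largest r was 0.75, for Fbxo32 and Bcl6 (permutation p = 0.00788, adjusted 0.177), with r = 0.35 without the 2 farthest arrays. Fbxo32 and Trim63 gave r = 0.67 (permutation p = 0.0298, adjusted 0.268) and rho = 0.50 (permutation p = 0.128, adjusted 0.72), and r was 0.24 without the 2 farthest arrays. Foxo1 and Foxo3 gave r = 0.65 (permutation p = 0.0248, adjusted 0.268), rho = 0.75 (permutation p = 0.0114, adjusted 0.213) and r = 0.67 without the 2 farthest arrays. All genes of an array share its RNA, hybridisation and scaling.

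By the same deviations over 12 arrays, the genes most like Fbxo32 were Nae1 (r = 0.93), Mrpl12 (r = 0.91) and Cdc14b (r = 0.90). Those most like Trim63 were Slc1a7 (r = 0.90), Anapc16 (r = 0.86) and Exoc4 (r = 0.86). Those most like Foxo1 were Hmgxb4 (r = 0.90), Cdca4 (r = 0.89) and Snx13 (r = 0.86). They are the 3 highest of all genes tested in each case and are given as a description only.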

How the data were processed

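Biotin-labelled RNA of 12 cultures was measured on Illumina bead arrays of 1 colour, per the labels' protocols. Per the file headers, the authors deposited raw bead intensity (linear, averaged per probe) and the detection p-value that goes with it. A second deposited table holds intensity values with nearly the same distribution on every array (column medians 73.14 to 73.23); how it was made is not stated, and it served as an alternative. Between 14747 and 16390 probes were detected per array, and the number of arrays limits the precision.

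Intensities were normalized with neqc of limma 3.58.1 (R 4.3.3), with background from the detection p-values, an offset of 16, quantile normalization and log2. That offset makes the fold change of a dim gene smaller. A probe was kept with a detection p under 0.05 on 6 arrays or more (15038), and a gene was read from its brightest kept probe (8905 genes). The 6 CTGF arrays were tested against the 6 control arrays (lmFit and eBayes, two-sided), and p was adjusted by Benjamini-Hochberg over all genes, or over all probes in the fit by probe. Values after ± are limma SE of the log2 change. The steps were tested on simulated data. There 83.3% of true rises and 85.3% of true falls of 1 on the log2 scale were called. For changes of 0.5 the shares were 37.1% of 35 rises and 45.5% of 33 falls, and 7.45% of all calls were false. At a mean of 6 or more they were 63.2% and 63.6%. Few of the 10002 genes in that simulation were changed. Recovery with as many changes as on these arrays was not tested. A gene that was not called can still have changed. Of the members not called, Trim63 and Pik3ip1 have 95% intervals that reach 0.5. Those of Insr, Sesn1 and the brightest Fbxo32 probe hold neither 0.5 nor -0.5.

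The platform annotation gave 1 gene symbol to 34885 probes, several to 18 and none to 10378; names were updated through Entrez identifiers (34807 probes) or accessions (11 probes). Named are all members with all their probes, up to 4 called genes per pathway list with the largest change, and the 3 genes most like Fbxo32, Trim63 and Foxo1. Members and lists were chosen with earlier results of these data known. The CTGF samples carry the numbers before those of the controls, and nothing gives the slides, so treatment and slide cannot be told apart. Alternatives covered background correction, scaling, filters, probe summary, the authors' values, array weights, variance model, the replicate number and leaving out each array.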

Additional observations from a re-analysis of the deposited data

Results flagged for a closer look

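Control 6 lay far from the other 5 controls on 3 of the 13 tested member probes: at 8.99 on the Irs2 probe against 10.05 to 10.53, at 7.58 on one Fbxo32 probe against 9.66 to 10.06, and at 7.45 on another Fbxo32 probe against 8.16 to 8.59. The gap to the nearest other control was 0.687, 0.842 and 0.627 of the group's whole range, each past Dixon's critical value at the 95% level. Among the 26 groups of arrays checked, chance flags about 5%. Control 6 also had the lowest median correlation with the arrays of its own group, 0.984 against 0.987 to 0.993 for the other 11 arrays. Without Control replicate 6 Irs2 was at -0.88 and Fbxo32, on its brightest probe, was not called.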

How the results depend on the processing

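Of the 10 members, 1 was called higher and 4 lower. The count called higher was 2 with no background correction, with normexp, with the authors' normalized values, with detection on all 12 arrays, with the mean of detected probes, with array weights, with a trended robust variance and with the added centring on the median of the genes tested. The added gene was Trim63, with limma adjusted p from 0.0113 to 0.0495 over these settings. The count was 5 with no normalization and with median scaling, and 0 at an adjusted p under 0.01, and 1 to 2 when each array was left out in turn. The count called lower was 0 with no normalization and with median scaling, and 4 in each fit that left out 1 array. Fbxo32, not called, turned to 0.28 with no normalization, 0.26 with median scaling and 0.012 with the mean of its probes, and Foxo3 turned to 0.0029 with no normalization. Bcl6 stayed called at an adjusted p under 0.05, at 0.28 to 0.71, in all 26 alternative fits, and missed the threshold of 0.01 in the reported one. Over all genes, 4403 were higher and 699 lower with no normalization and 4218 and 749 with median scaling, beside 2229 and 1924. With the replicate number as a replicate block, 1 member was higher and 4 lower. The replicate numbers showed no pairing in the values. Same-numbered samples correlated at -0.05 to 0.03, and 0 of 6 CTGF samples correlated best with their own number. Over all pairs of a CTGF and a control array the range was -0.25 to 0.47. A pairing of the samples in another order was not tested. Dim probes, such as the second of Foxo1, are limited by signal over background.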
